A study of Mus musculus with 18 samples.

Results

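The MYC, MAX and MXD network is a family of basic helix-loop-helix leucine zipper transcription factors, followed here through 10 mouse genes taken by symbol from an expression table of 34896 genes: Myc, Mycn, Mycl, Max, Mxd1, Mxd3, Mxd4, Mxi1, Mnt and Mga. MYC proteins bind the E-box CACGTG only as dimers with MAX, and in that form they recruit histone acetyltransferases and drive ribosome production, metabolism and cell division. MXD proteins and MNT compete for MAX, bind the same E-box and bring in the SIN3 histone deacetylase complex, whereas MGA pairs with MAX inside a variant Polycomb complex. In the granulocyte lineage MYC is known for keeping progenitors in cycle, and MXD1 for being switched on as they differentiate.

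Bone marrow cells of adult C57BL/6 mice aged 6 to 12 weeks were sorted as granulocyte-monocyte progenitors (GMPs, lineage-negative cells with KIT, CD34 and CD16/32), as dividing neutrophil precursors (preNeu, granulocytes with KIT and CXCR4) and as mature neutrophils (matNeu, granulocytes with CXCR2). For GMPs, marrow of tibiae, femora and humeri was pooled and depleted of lineage-positive cells before sorting. RNA was sequenced in 3 wild-type libraries per cell type, 9 in all. Peak lists come from 1 library each: CHD4, the ATPase of the nucleosome-remodelling complex NuRD, in wild-type (WT) GMPs and in GMPs of Gfi1-/- mice (Gfi1KO, lacking the repressor GFI1), and H3K4me2, a histone mark of promoters and enhancers, in wild-type cells of each type. Expression is in TPM, a share of transcripts corrected for their length that sums to 1000000 in each library, so the read depth behind a value is unknown. Nothing in the labels or methods says that the 3 libraries of a cell type came from separate animals, so the p-values below measure only the spread between these samples.

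The title and the cell type field name different cells in 13 of the 18 samples of the series, the 9 RNA-seq libraries among them, and the groups here follow the titles. The progenitor gene Cd34 read 498, 486 and 425 TPM in the libraries titled GMP and 1.23 to 3.27 TPM in the other 6. The neutrophil receptor gene Cxcr2 read 3027, 3400 and 3976 TPM in those titled matNeu, and 7.65 to 93.4 TPM elsewhere. All 6 GMP marker genes summed to 45270, 45590 and 47150 TPM in GMP, to 8320, 9360 and 9214 TPM in preNeu and to 9.55, 32.7 and 9.32 TPM in matNeu, with Mpo the most abundant. All 7 preNeu markers summed to 146, 129.6 and 155 TPM in GMP, 175500, 158000 and 149100 TPM in preNeu and 5689, 6853 and 4570 TPM in matNeu, led in preNeu by the granule gene Ngp. The RNA libraries thus carry the markers of their titles. The H3K4me2 lists titled preNeu and matNeu have the fields GMP and preNeu, and no expression value can check them.

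Among the 10 genes, 8 had at least 1 TPM in at least 3 libraries and were tested by limma with all 13061 such genes, and Mycn and Mycl were not. From GMP to preNeu 3 of the 8 rose and 2 fell, against 14.7% and 44.3% of all genes tested. From preNeu to matNeu 4 rose and 2 fell, against 22.9% and 39.8%. From GMP to matNeu 4 rose and 3 fell, against 22.8% and 54.1%. Myc and Mxd3 passed the filter through 6 libraries only, and a gene kept through the groups where it is high had to differ, so these counts describe the genes and carry no test. The comparisons share libraries and are not independent of each other.

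A few very abundant transcripts take much of the TPM total in neutrophil precursors: the 10 highest genes held 9.15% to 9.78% of it in GMP, 24.1% to 28.3% in preNeu and 12.7% to 15.9% in matNeu. The median log2 change of all genes tested was -0.52 from GMP to preNeu, -0.32 from preNeu to matNeu and -0.92 from GMP to matNeu. With median-of-ratios scaling these medians were -0.16, -0.04 and -0.25, and without the 100 highest genes -0.19, -0.50 and -0.80. From GMP to preNeu 1925 genes rose and 5781 fell, against 2811 and 4003 with median-of-ratios scaling and 2760 and 4037 without the 100 highest genes. From preNeu to matNeu 2995 rose and 5202 fell, against 4021 and 4347 with median-of-ratios scaling and 2624 and 5742 without the 100 highest genes. From GMP to matNeu the split was 2976 and 7065, against 4406 and 5553 or 3263 and 6586. Changes are therefore also given relative to the median of all genes.

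Myc, the family's main activator in blood progenitors, was high in GMP and almost absent from matNeu. It read 386, 463 and 438 TPM in the GMP libraries, 17.2, 26.3 and 31.4 TPM in preNeu and 0.0890, 0.468 and 0.349 TPM in matNeu. Each GMP library stood above each preNeu library, and each preNeu library above each matNeu library. The mean was 429 ± 39.2 TPM in GMP (SD, n = 3), 17.2-fold lower in preNeu, and Myc ranked between 300 and 378 by TPM in the GMP libraries. By limma Myc fell by 4.09 on the log2 scale from GMP to preNeu (SE 0.23, adjusted p = 3.00e-07), lower in 3 of 3 preNeu libraries than in any GMP library. The log2 change was -4.29 from preNeu to matNeu and -8.37 from GMP to matNeu. No test is given for these because Myc passed the filter only through its GMP and preNeu libraries. Both depend on the 1 TPM added before the log. With 0.1 TPM they were -6.06 and -10.2, and the means differed 82.6-fold and 1419-fold. Relative to the median of all genes the 3 changes were -3.57, -3.97 and -7.45. In bulk RNA, fewer cells with the transcript and less of it per cell cannot be told apart.

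The paralogues of Myc were low. Mycn, best known from neural and early progenitors, read 1.43, 0.534 and 1.16 TPM in GMP and is listed at 0 in all 6 other libraries. Mycl, known from dendritic cells among blood cells, stayed under 1 TPM in all 9 libraries, from 0 to 0.941 TPM, and its groups overlapped. Nearly all MYC-family transcripts in GMP were therefore those of Myc: 387, 464 and 439 TPM were summed over the family.

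Mxd1, the repressor that pairs with MAX in maturing granulocytes, went the other way at each step. It read 9.50, 14.3 and 10.4 TPM in GMP, 192, 239 and 265 TPM in preNeu and 2251, 2262 and 3136 TPM in matNeu. No groups overlapped, and in matNeu it stood between place 37 and place 56 of all genes by TPM, against 7662 to 8456 in GMP. The mean rose from 11.4 ± 2.52 TPM (SD, n = 3) in GMP 20.4-fold to 232 ± 37.1 TPM in preNeu, and a further 11.0-fold to 2549 ± 508 TPM in matNeu. By limma Mxd1 rose by 4.24 on the log2 scale from GMP to preNeu (SE 0.19, adjusted p = 5.63e-08), higher in 3 of 3 preNeu libraries than in any GMP library. The next step added 3.45 (SE 0.19, limma adjusted p = 7.08e-08), higher in 3 of 3 matNeu libraries. The whole change of 7.69 (SE 0.19, limma adjusted p = 2.18e-10), seen in 3 of 3 matNeu libraries, was the 57th highest of all genes. Relative to the median of all genes the 3 changes were 4.76, 3.76 and 8.61.

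Mxd3, an MXD repressor known for its expression in the S phase of dividing cells, peaked in the middle stage. Its levels were 7.43, 4.91 and 8.70 TPM in GMP, 70.2, 58.6 and 56.4 TPM in preNeu and 0.187, 0.692 and 0.289 TPM in matNeu. The preNeu libraries were the highest and the matNeu libraries the lowest, with no overlap between any groups. By limma Mxd3 rose by 2.99 from GMP to preNeu (SE 0.26, adjusted p = 5.99e-06), higher in 3 of 3 libraries. Mxd3 too passed the filter only through GMP and preNeu, so its changes of -5.51 from preNeu to matNeu and -2.51 from GMP to matNeu are given without a test. Both depend on the 1 TPM added before the log. With 0.1 TPM they were -7.11 and -3.96, and the means differed 158.6-fold and 18.0-fold. Subtracting the median of all genes left 3.51, -5.19 and -1.59.

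Mxi1, also called MXD2, rose at the first step and did not pass the test at the next. It read 7.10, 9.07 and 7.51 TPM in GMP, 22.0, 23.8 and 21.2 TPM in preNeu and 21.7, 28.2 and 32.3 TPM in matNeu. GMP was the lowest group without overlap, and preNeu and matNeu overlapped. By limma it rose by 1.40 from GMP to preNeu (SE 0.20, adjusted p = 1.63e-04), higher in 3 of 3 libraries. From preNeu to matNeu the estimate was 0.27 (SE 0.20, limma adjusted p = 0.268), with 2 of 3 matNeu libraries above every preNeu library, and with median-of-ratios scaling it was 0.66 and passed. It was 0.09 without the 100 highest genes, 0.42 without matNeu replicate 1 and 0.14 without matNeu replicate 3, none of which passed. Over both steps Mxi1 rose by 1.66 (SE 0.20, limma adjusted p = 1.75e-05), higher in 3 of 3 libraries. Relative to the median of all genes the 3 changes were 1.92, 0.59 and 2.59.

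Mxd4, an MXD repressor known from resting and differentiated cells, was low throughout. It read 14.1, 7.84 and 12.4 TPM in GMP, 6.70, 6.84 and 6.89 TPM in preNeu and 12.7, 10.8 and 27.8 TPM in matNeu. The preNeu group was the lowest without overlap, matNeu and GMP overlapped, and matNeu replicate 3 stood apart. By limma it rose by 1.10 from preNeu to matNeu (SE 0.34, adjusted p = 0.0158), higher in 3 of 3 libraries, but without matNeu replicate 3 the estimate was 0.70 and did not pass. GMP and preNeu differed by -0.64 (SE 0.34, limma adjusted p = 0.132), with 3 of 3 preNeu libraries lower, and the same -0.64 passed without matNeu replicate 3, while median-of-ratios scaling gave -0.25 and leaving out the 100 highest genes -0.27. GMP and matNeu differed by 0.46 (SE 0.34, limma adjusted p = 0.236), with 1 of 3 matNeu libraries above every GMP library, and by 1.23, which passed, with median-of-ratios scaling. It was 0.07 without matNeu replicate 3, 0.23 without GMP replicate 2 and 0.71 without matNeu replicate 2, none of which passed. With the median of all genes subtracted, Mxd4 was at -0.12 from GMP to preNeu, 1.41 from preNeu to matNeu and 1.38 from GMP to matNeu.

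Max, the shared partner of all the others, overlapped between the early stages and was higher in mature cells. It read 53.0, 36.4 and 47.3 TPM in GMP, 42.7, 55.8 and 49.2 TPM in preNeu and 130, 187 and 135 TPM in matNeu. GMP and preNeu overlapped, and all matNeu libraries stood above both. By limma Max rose by 1.58 from preNeu to matNeu (SE 0.19, adjusted p = 3.00e-05), higher in 3 of 3 libraries, and by 1.70 against GMP (adjusted p = 9.92e-06), also in 3 of 3. Between GMP and preNeu the estimate was 0.12 (SE 0.19, limma adjusted p = 0.621), with 1 of 3 preNeu libraries above every GMP library. It ranged from -0.03 without GMP replicate 2 to 0.23 without GMP replicate 1, and it passed at 0.54 with median-of-ratios scaling and at 0.53 without the 100 highest genes. Against the median of all genes Max was at 0.64 from GMP to preNeu, 1.90 from preNeu to matNeu and 2.63 from GMP to matNeu.

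Mnt, a broadly expressed MAX partner that restrains MYC, read 4.59, 3.80 and 3.79 TPM in GMP, 2.54, 3.10 and 2.46 TPM in preNeu and 7.90, 5.91 and 8.23 TPM in matNeu. It was lowest in preNeu and highest in matNeu, with no overlap between groups. By limma Mnt rose by 1.17 from preNeu to matNeu (SE 0.24, adjusted p = 0.00140), higher in 3 of 3 libraries, while GMP and preNeu differed by -0.45 (adjusted p = 0.128), lower in 3 of 3. Its rise of 0.71 from GMP to matNeu (SE 0.24, limma adjusted p = 0.0182), in 3 of 3 libraries, did not pass without GMP replicate 2 (0.68), GMP replicate 3 (0.68), matNeu replicate 1 (0.66) or matNeu replicate 3 (0.64). With median-of-ratios scaling the GMP to preNeu difference was -0.12 and the GMP to matNeu rise 1.41, and without the 100 highest genes they were -0.14 and 0.94. Against the median of all genes Mnt was at 0.07 from GMP to preNeu, 1.49 from preNeu to matNeu and 1.64 from GMP to matNeu. Its change from GMP to preNeu was thus not below the median change.

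Mga, the very large MAX partner of a Polycomb complex, was highest in progenitors. It read 31.2, 36.9 and 23.2 TPM in GMP, 16.3, 12.3 and 14.8 TPM in preNeu and 15.9, 12.5 and 18.8 TPM in matNeu. GMP stood above the other groups, which overlapped each other. By limma Mga fell by 1.01 from GMP to preNeu (SE 0.23, adjusted p = 0.00319), lower in 3 of 3 libraries. That change was -0.59 with median-of-ratios scaling, -0.62 without the 100 highest genes and -0.49 relative to the median of all genes. From GMP to matNeu it fell by 0.90 (SE 0.23, limma adjusted p = 0.00404), lower in 3 of 3 libraries, a change of 0.02 relative to the median of all genes, and with median-of-ratios scaling it was -0.11 and did not pass. Between preNeu and matNeu the estimate was 0.11 (SE 0.23, limma adjusted p = 0.711), with 1 of 3 matNeu libraries above every preNeu library, and its sign turned without matNeu replicate 3 (-0.02) and without the 100 highest genes (-0.08). It was 0.25 without matNeu replicate 2, 0.49 with median-of-ratios scaling, which did not pass either, and 0.42 relative to the median.

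**Figure D1:**
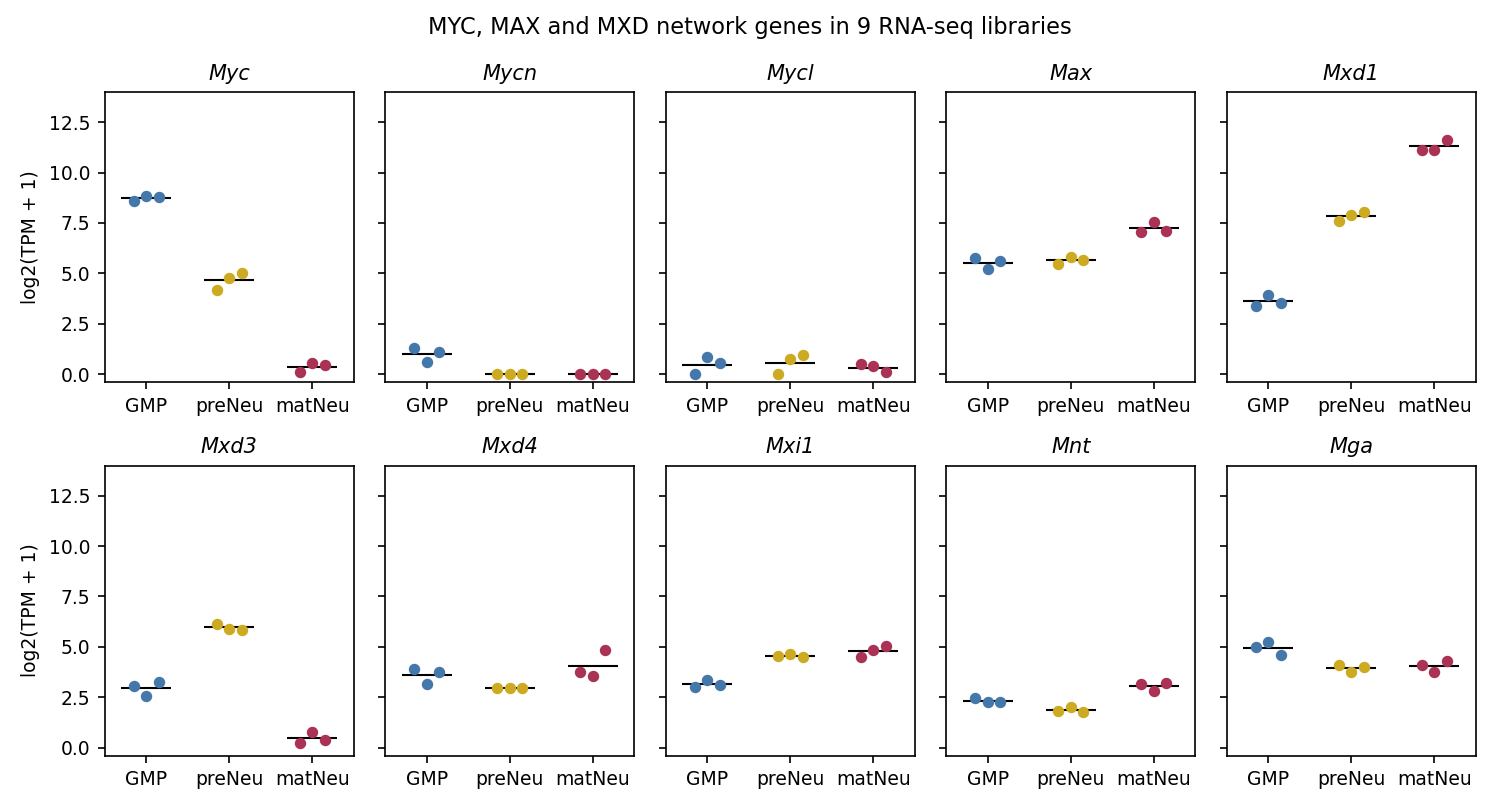
Expression of the 10 network genes as log2(TPM + 1), 1 point per library and a line at the mean of the 3 libraries of each cell type. Myc goes down and Mxd1 up at each step, Mxd3 peaks in preNeu, and Mycn and Mycl lie near 0.

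Ordered by mean TPM, Myc led in GMP without overlap, followed by Max and Mga, whose values overlapped. In preNeu the order was Mxd1, then Mxd3 and Max, with Myc and Mxi1 next and overlapping. In matNeu Mxd1 led, Max followed, and Mxi1, Mxd4 and Mga came next, with Mxd4 overlapping both of its neighbours. Taking the 9 partners of MAX together, their transcripts summed to 461, 540.6 and 505 TPM in GMP, 327, 370 and 399 TPM in preNeu and 2310, 2321 and 3223 TPM in matNeu. The sum was lowest in preNeu, and each matNeu library stood above all others.

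The make-up of that sum turned over between GMP and preNeu. Transcripts of the MYC family made up 84.0%, 85.8% and 86.9% of it in GMP, 5.27%, 7.28% and 8.09% in preNeu and 0.0217%, 0.0335% and 0.0126% in matNeu. Those of Mxd1, Mxd3, Mxd4 and Mxi1 made up 8.27%, 6.67% and 7.73% in GMP, 89.0%, 88.6% and 87.6% in preNeu and 98.95%, 99.2% and 99.2% in matNeu. MYC thus led in all GMP libraries and the MXD group in all 6 others, without overlap. Mnt and Mga together held 5.34% to 7.76% in GMP, 4.16% to 5.76% in preNeu and 0.794% to 1.03% in matNeu. Mxd1 alone held 2.06%, 2.64% and 2.06% in GMP, 58.7%, 64.5% and 66.4% in preNeu and 97.5%, 97.5% and 97.3% in matNeu.

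The ratio of Mxd1 to Myc TPM was 0.0246, 0.0308 and 0.0238 in GMP, 11.2, 9.09 and 8.46 in preNeu and 25290, 4834 and 8984 in matNeu. It was under 1 in all GMP libraries and above 1 in all others, and its divisor, Myc, was under 1 TPM in all matNeu libraries. With 1 TPM added to both genes the matNeu ratios were 2068, 1542 and 2325. The partners' sum per unit of Max was 8.71, 14.9 and 10.7 in GMP, 7.65, 6.64 and 8.11 in preNeu and 17.7, 12.4 and 23.8 in matNeu, so matNeu and GMP overlapped. These are shares of transcripts, and no protein was measured.

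**Figure D2:**
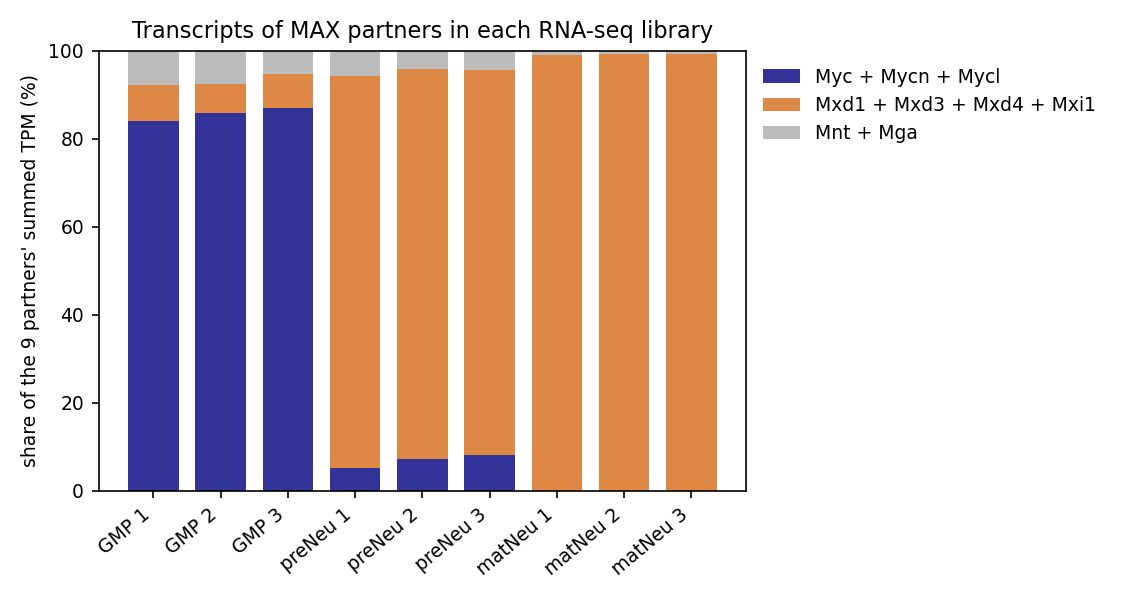
Share of the summed TPM of the 9 MAX partners (percent) held by the MYC family, the MXD family, and Mnt with Mga, 1 bar per RNA-seq library. The MYC family holds 84.0% to 86.9% in GMP, and the MXD family 87.6% to 89.0% in preNeu.

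Among 9489 tested genes with a mean of at least 10 TPM in some cell type, 5 were named for each of Myc and Mxd1 by the highest Pearson correlation of log2(TPM + 1) over the 9 libraries. For Myc these were Mybbp1a (0.9985), Cct5 (0.9983), Pdia6 (0.9983), Zbed4 (0.998) and Lrpprc (0.9979). Mybbp1a, which encodes a nucleolar protein that binds MYB, read 199.6, 224 and 224 TPM in GMP, 16.1, 19.5 and 25.4 TPM in preNeu and 1.26, 1.88 and 1.05 TPM in matNeu. For Mxd1 they were Lilrb4a (0.999), Sirpa (0.9984), Slfn4 (0.9982), Rab5b (0.9981) and Rdh12 (0.9978). Lilrb4a, an inhibitory receptor of myeloid cells, read 4.60, 7.84 and 6.45 TPM in GMP, 162, 202 and 212 TPM in preNeu and 2665, 2943 and 2898 TPM in matNeu. The libraries fall into the 3 cell types, so each correlation is a description of how alike the group levels are.

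Genes that MYC is known to activate, such as those for ribosome assembly and nucleotide synthesis, mostly fell at each step. Of 28 listed, 27 were tested and Tert was not. All 27 fell from GMP to preNeu (median -2.75, against -0.52 over all genes), 25 fell and 1 rose from preNeu to matNeu (-2.35 against -0.32), and all 27 fell from GMP to matNeu (-5.11 against -0.92). Of all genes tested 44.3%, 39.8% and 54.1% fell in these comparisons. With median-of-ratios scaling 25, 24 and 27 fell. Npm1, a nucleolar chaperone of ribosome assembly, read 2779, 2441 and 2612 TPM in GMP, 217, 229 and 227 TPM in preNeu and 16.2, 17.6 and 23.1 TPM in matNeu. The groups did not overlap, and by limma it fell by 7.04 from GMP to matNeu (SE 0.13, adjusted p = 8.34e-11), lower in 3 of 3 libraries. Srm, the spermidine synthase, fell by 7.92, Dkc1, the pseudouridine synthase of ribosomal RNA, fell by 7.13, and Pa2g4, a ribosome-associated growth regulator, fell by 6.59. The gene that rose from preNeu to matNeu, named after its values were seen, was Ccnd2, a cyclin of the G1 phase: it read 214, 174 and 281.5 TPM in GMP, 15.7, 7.69 and 9.52 TPM in preNeu and 69.0, 68.4 and 73.9 TPM in matNeu, and rose by 2.63 at that step.

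Of 4 genes that MYC is known to repress, 3 were tested, and Cdkn2b was not. From GMP to preNeu 2 rose (median 1.07), and at each of the other comparisons 2 rose and 1 fell (medians 1.6 and 2.67). Of all genes tested 14.7%, 22.9% and 22.8% rose and 44.3%, 39.8% and 54.1% fell, against which 3 genes cannot be read. Gadd45a, a stress-induced growth arrest gene, read 3.58, 9.78 and 11.0 TPM in GMP, 27.1, 36.4 and 25.6 TPM in preNeu and 166, 364 and 395 TPM in matNeu. Its groups did not overlap, and it rose by 5.10 from GMP to matNeu. Cdkn1b, which encodes the cell cycle inhibitor p27, rose by 2.67, whereas Cdkn1a, which encodes the inhibitor p21, fell by 1.38.

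The 12 proliferation genes divided in preNeu and then all fell. From GMP to preNeu 5 rose and 7 fell (median -0.77), against 14.7% and 44.3% of all genes tested, and with a pseudocount of 0.1 the count that rose was 2. Those 5, named after their values were seen, were Mki67, Top2a, Ccna2, Ccnb1 and Cdk1, which act in late cell cycle phases, and the 7 that fell were Pcna and the Mcm genes of DNA replication. From preNeu to matNeu and from GMP to matNeu all 12 fell (medians -6.27 and -6.73), against 39.8% and 54.1%. Cdk1, the kinase that starts mitosis, read 391, 305.5 and 410 TPM in GMP, 692.5, 691 and 595 TPM in preNeu and 0.978, 0 and 0.664 TPM in matNeu. It was highest in preNeu and near 0 in matNeu without overlap, while Myc had already fallen in preNeu. Mcm3, Mcm5 and Mcm6, subunits of the replicative helicase, had changes of -8.61, -7.79 and -7.29 from GMP to matNeu, all past the threshold.

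MXD proteins repress through the SIN3 complex. Of its 14 genes, 2 rose and 3 fell from GMP to preNeu (14.7% and 44.3% of all genes tested), 4 rose and 5 fell from preNeu to matNeu (22.9% and 39.8%), and 6 rose and 6 fell from GMP to matNeu (22.8% and 54.1%). Several of these counts lie near the shares of all genes. The medians were -0.10, -0.20 and 0.10, and with median-of-ratios scaling 0.30, 0.17 and 0.85, so the first pair turned sign, and 4 genes instead of 2 rose from GMP to preNeu. Rbbp7, a histone-binding subunit, read 629, 714 and 629 TPM in GMP, 241, 264 and 273 TPM in preNeu and 10.2, 9.12 and 13.5 TPM in matNeu. Its groups did not overlap, and it fell by 5.80 from GMP to matNeu. The deacetylase gene Hdac2 fell by 4.84, its paralogue Hdac1 fell by 1.88 and the histone-binding Rbbp4 fell by 2.25. The paper describes the products of these genes, that of Rbbp7 included, as parts of NuRD, so they are not particular to SIN3.

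Among 12 coactivators of MYC, 2 rose and 7 fell from GMP to preNeu (all genes 14.7% and 44.3%), 4 rose and 6 fell from preNeu to matNeu (22.9% and 39.8%), and 3 rose and 6 fell from GMP to matNeu, near the 22.8% and 54.1% of all genes. The count of 2 was 0 without GMP replicate 2, GMP replicate 3, preNeu replicate 2 or preNeu replicate 3, and 1 without preNeu replicate 1. The medians were -0.62, -0.50 and -0.55, the last of which turned to 0.28 with median-of-ratios scaling, where 4 rose from GMP to preNeu and 6 from GMP to matNeu. Ruvbl1, an ATPase of the TIP60 complex, read 246.5, 264 and 255 TPM in GMP, 46.3, 52.9 and 55.0 TPM in preNeu and 4.52, 2.65 and 5.35 TPM in matNeu. Its groups did not overlap, and it fell by 5.67 from GMP to matNeu. The acetyltransferase gene Kat2a fell by 5.44, the actin-like Actl6a fell by 4.93 and the other ATPase gene Ruvbl2 fell by 4.01.

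Genes acting on the stability of MYC protein were mixed. Of 11, 3 rose and 5 fell from GMP to preNeu (all genes 14.7% and 44.3%), 3 rose and 4 fell from preNeu to matNeu (22.9% and 39.8%), and 3 rose and 5 fell from GMP to matNeu (22.8% and 54.1%), so most of these counts lie near the shares of all genes. The medians were -0.63, 0.05 and -0.29, the last of which was -0.60 without GMP replicate 1 or without GMP replicate 2 and 0.46 with median-of-ratios scaling. That scaling left 2 that fell from GMP to preNeu, and 5 that rose in each of the other comparisons. Aurka, a mitotic kinase known to stabilise MYC-family protein, read 108, 138 and 132 TPM in GMP, 246, 268 and 309 TPM in preNeu and 3.78, 1.32 and 1.6 TPM in matNeu. It was highest in preNeu without overlap, rose by 1.12 and then fell by 6.48. Pim1, a kinase induced by cytokines, read 3.87, 5.23 and 6.70 TPM in GMP, 3.85, 2.28 and 2.95 TPM in preNeu and 78.6, 42.4 and 59.2 TPM in matNeu, and rose by 3.27 from GMP to matNeu. The ubiquitin ligase genes Skp2 and Huwe1 had changes of -5.04 and -2.90.

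Of 9 partners of MGA in its Polycomb complex, 3 rose and 5 fell from GMP to preNeu (all genes 14.7% and 44.3%), 0 rose and 4 fell by limma from preNeu to matNeu (0 rose also at an unadjusted p under 0.05), and 2 rose and 6 fell from GMP to matNeu (medians -0.71, -0.98 and -1.30). Of all genes 22.9% rose and 39.8% fell from preNeu to matNeu, and 22.8% and 54.1% from GMP to matNeu. With median-of-ratios scaling 3 fell from GMP to preNeu and 1 rose from preNeu to matNeu. L3mbtl2, a chromatin reader of the complex, read 53.3, 55.3 and 52.2 TPM in GMP, 21.1, 21.5 and 28.3 TPM in preNeu and 1.64, 1.12 and 2.21 TPM in matNeu. It fell by 4.38 from GMP to matNeu, E2f6, its DNA-binding repressor, fell by 3.84, Pcgf6, the subunit that defines the complex, fell by 3.61, and the heterochromatin protein gene Cbx3 fell by 3.26. From the MLX branch, which senses nutrients beside MAX, and MIZ1, through which MYC represses, 3 of 4 genes were tested and Mlxipl was not. By limma 0 passed from GMP to preNeu (0 also at an unadjusted p under 0.05), 1 rose and 1 fell from preNeu to matNeu, and 2 fell from GMP to matNeu, which with 3 genes cannot be read against the shares of all genes. These small counts moved by 1 without GMP replicate 1, GMP replicate 3 or any matNeu replicate. Zbtb17, the gene of MIZ1, fell by 1.16 from GMP to matNeu and Mlx fell by 0.54, but with median-of-ratios scaling neither fell. Over all 94 listed genes, 91 were tested: 17 rose and 54 fell from GMP to preNeu (14.7% and 44.3% of all genes), 15 and 58 from preNeu to matNeu (22.9% and 39.8%), and 16 and 65 from GMP to matNeu (22.8% and 54.1%). Cdk1, Skp2, E2f6, Pcgf6 and 1 other listed gene passed the filter only through GMP and preNeu, so their part of the counts against matNeu is a description and no test.

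Marker genes of other cells were read in the same libraries. The 4 basophil and mast cell genes, led by Cpa3 in GMP, summed to 703, 521 and 571 TPM in GMP, 487.5, 308 and 386 TPM in preNeu and 1.73, 12.6 and 3.53 TPM in matNeu. The 4 eosinophil genes were led by Prg2 in GMP and by Siglecf in the other cell types. They summed to 904, 1101 and 852 TPM in GMP, 38.9, 35.6 and 42.8 TPM in preNeu and 45.5, 33.9 and 50.9 TPM in matNeu. In matNeu the defining gene Epx was at 0 and Siglecf had a mean of 41.7 TPM. The paper's legend on gating describes its mature neutrophils as Siglec-negative cells with CXCR2. The 4 dendritic cell genes, led by Irf8, summed to 563, 522 and 494 TPM in GMP and to 13.1 to 27.5 TPM elsewhere. The 6 monocyte genes, led by Ly6c2, summed to 2942 to 3616 TPM in GMP, 1668 to 2207 in preNeu and 1126 to 1493 in matNeu, and the 6 T and NK cell genes, led by Nkg7 in GMP, to 461 to 613, 216.5 to 252.5 and 9.01 to 16.0 TPM. The basophil and mast cell, monocyte, and T and NK cell sums were thus lower at each step without overlap, as was Myc, but single genes of these lists were not. Prss34, the highest basophil gene of preNeu, read 182, 99.3 and 164.5 TPM in GMP, 341, 213 and 269.5 TPM in preNeu and 0, 6.14 and 1.73 TPM in matNeu, higher in preNeu than in GMP without overlap, though the estimate of 0.90 did not pass. The T and NK sum was mostly Nkg7 before matNeu, while the T cell gene Cd3d read 3.002, 2.34 and 3.29 TPM in GMP, 2.22, 2.88 and 0.769 TPM in preNeu and 9.33, 14.1 and 6.57 TPM in matNeu, and rose by 1.91 from preNeu to matNeu. Inside the monocyte sum Csf1r, named after its values were seen, read 232, 192 and 188 TPM in GMP, 8.22, 10.9 and 22.3 TPM in preNeu and 309, 253 and 350 TPM in matNeu. Adgre1 was named likewise. It read 14.9, 10.7 and 11.4 TPM in GMP, 7.45, 12.8 and 13.9 TPM in preNeu and 75.7, 78.7 and 97.0 TPM in matNeu. Both genes were thus highest in matNeu, as was Mxd1. From GMP to matNeu Adgre1 rose by 2.67, while the estimate of 0.57 for Csf1r did not pass. The 6 erythroid genes summed to 5.02 to 15.8 TPM, with groups that overlapped, and the 4 megakaryocyte genes to 35.6, 51.3 and 46.7 TPM in GMP and 4.83 to 8.30 TPM elsewhere. The eosinophil, dendritic and megakaryocyte sums were highest in GMP, as was Myc, and overlapped between preNeu and matNeu. Here too single genes differed: the dendritic gene Siglech read 0, 0 and 0.177 TPM in GMP, 0.600, 0.142 and 0.280 TPM in preNeu and 8.31, 11.6 and 6.60 TPM in matNeu, highest there like Mxd1. It passed the filter only through matNeu and gets no test. The platelet gene Gp1bb was at 0 to 0.840 TPM in GMP and 1.27 to 4.24 TPM in preNeu. The 7 matNeu markers summed to 845, 723 and 730.0 TPM in GMP, 1216, 1388 and 1424 TPM in preNeu and 36720, 36380 and 33750 TPM in matNeu. The part of other cells in the values of the network was not tested.

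CHD4 peaks of WT GMPs lay within 10 kb of 7 of the 10 genes, against 32.4% of 21938 protein-coding genes. Myc had 10 of the 22 peaks, Mxi1 5, Max and Mxd3 2 each, and Mycn, Mycl and Mxd1 1 each, while Mxd4, Mnt and Mga had none. At least 10 peaks were found at 2.88% of protein-coding genes. With 1 library per genotype these counts have no replicate and no test. Of the 22 peaks, 4 overlapped a CHD4 peak of Gfi1KO GMPs by at least 1 base, against 18.5% of all 35790 peaks: 3 at Myc and 1 at Mycl. The Gfi1KO list holds 7316 peaks. The share of WT peaks found again was 92.9% among the 3579 with the highest fold enrichment. It was 0.643% among the 3579 with a fold of 4.65 to 5.27 and 3.91% among the 3579 with a fold of 1.61 to 4.65. A weaker library and lost binding therefore cannot be told apart.

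The strongest CHD4 peak near Myc (gene on the plus strand of chromosome 15 from 61985391 to 61990374, GRCm38) lay downstream at chr15:61999521-62000164, with its summit 14461 bases from the gene's start and a fold enrichment of 40.8 over background in WT and 9.43 in Gfi1KO GMPs. It ranked 657th of all WT peaks and lay under no H3K4me2 peak of any of the 3 cell types. The second covered the gene's start at chr15:61984731-61986123, with a fold enrichment of 15.8 in WT and 5.27 in Gfi1KO, and the third lay just upstream of it with 13.7 and 7.21. Both were under H3K4me2 in all 3 cell types. The single peak near Mycl, chr4:122991122-122991697, lay upstream of the gene with a fold enrichment of 18.7 in WT and 5.55 in Gfi1KO. Elsewhere the strongest peaks reached 9.84 in an intron of Mxi1, 8.39 in an intron of Max, 5.99 downstream of Mxd3 at the promoter of its neighbour Prelid1, 4.65 downstream of Mxd1 and 3.995 in an intron of Mycn, and none of these was found again in Gfi1KO.

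H3K4me2 marked all 10 genes in all 3 cell types, with a peak over the start of each, while 73.6% of protein-coding genes had a peak within 10 kb in GMP, 74.2% in preNeu and 72.1% in matNeu. The peaks numbered 21, 29 and 23, and with a minimum of 5 on the -log10 q scale the GMP count was 10. At Max the covered share of the gene with 10 kb on each side was 10% in GMP, 40.6% in preNeu and 62.2% in matNeu. A peak of 24242 bases, chr12:76939286-76963527, spanned nearly the whole gene in matNeu, and only 0.451% of protein-coding genes had as high a share. At Mxd1 the shares were 10.3%, 36.6% and 47.2%, and the peak over the start measured 4326 bases in GMP, 11834 in preNeu and 17709 in matNeu. At Myc they were 23.1%, 25.6% and 22.9%, but its GMP peak was weak, with a fold enrichment of 3.395 against 17.0 in preNeu, and with the minimum of 5 the shares were 0, 25.6% and 21.6%.

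Mxi1 had 12.3%, 35.4% and 33.6% of its window covered, Mxd3 25.4%, 47.1% and 38.6%, and Mnt 24.6%, 34.7% and 32.8%. Most of the Mxd3 cover was a separate peak over its neighbours Prelid1 and Rab24. That peak measured 4147 bases in GMP, 6875 in preNeu and 6473 in matNeu, against 2116, 4742 and 3040 over the start of Mxd3. Mycn went from 19.4% in GMP to 11.9% and 7.05%, and Mycl from 7.20% to 5.18% and 3.92%. Mxd4 had 27.6%, 33.7% and 23.8%, and Mga 4.70%, 7.06% and 5.65%. In the Mxd4 window a peak over the neighbouring genes Haus3 and Poln measured 4667, 6576 and 3890 bases, against 3582, 3900 and 4171 over the start of Mxd4. The Mga shares include peaks at the promoter of its neighbour Mapkbp1. Over all protein-coding genes the mean share was 6.56%, 10.8% and 8.96%, and the GMP list is the weakest of the 3, with a median -log10 q of 2.41 against 6.96 and 5.06 and a covered length of 49.8 Mb against 97.9 and 80.4 Mb. With the minimum of 5 the GMP share became 0 at Myc, Mxd1 and Mnt and 5.64% at Max. The gain from GMP to matNeu was 52.2 percentage points at Max and 37.0 at Mxd1, sizes reached by 0.160% and 0.634% of protein-coding genes. The part of list strength in these differences was not tested.

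**Figure D3:**
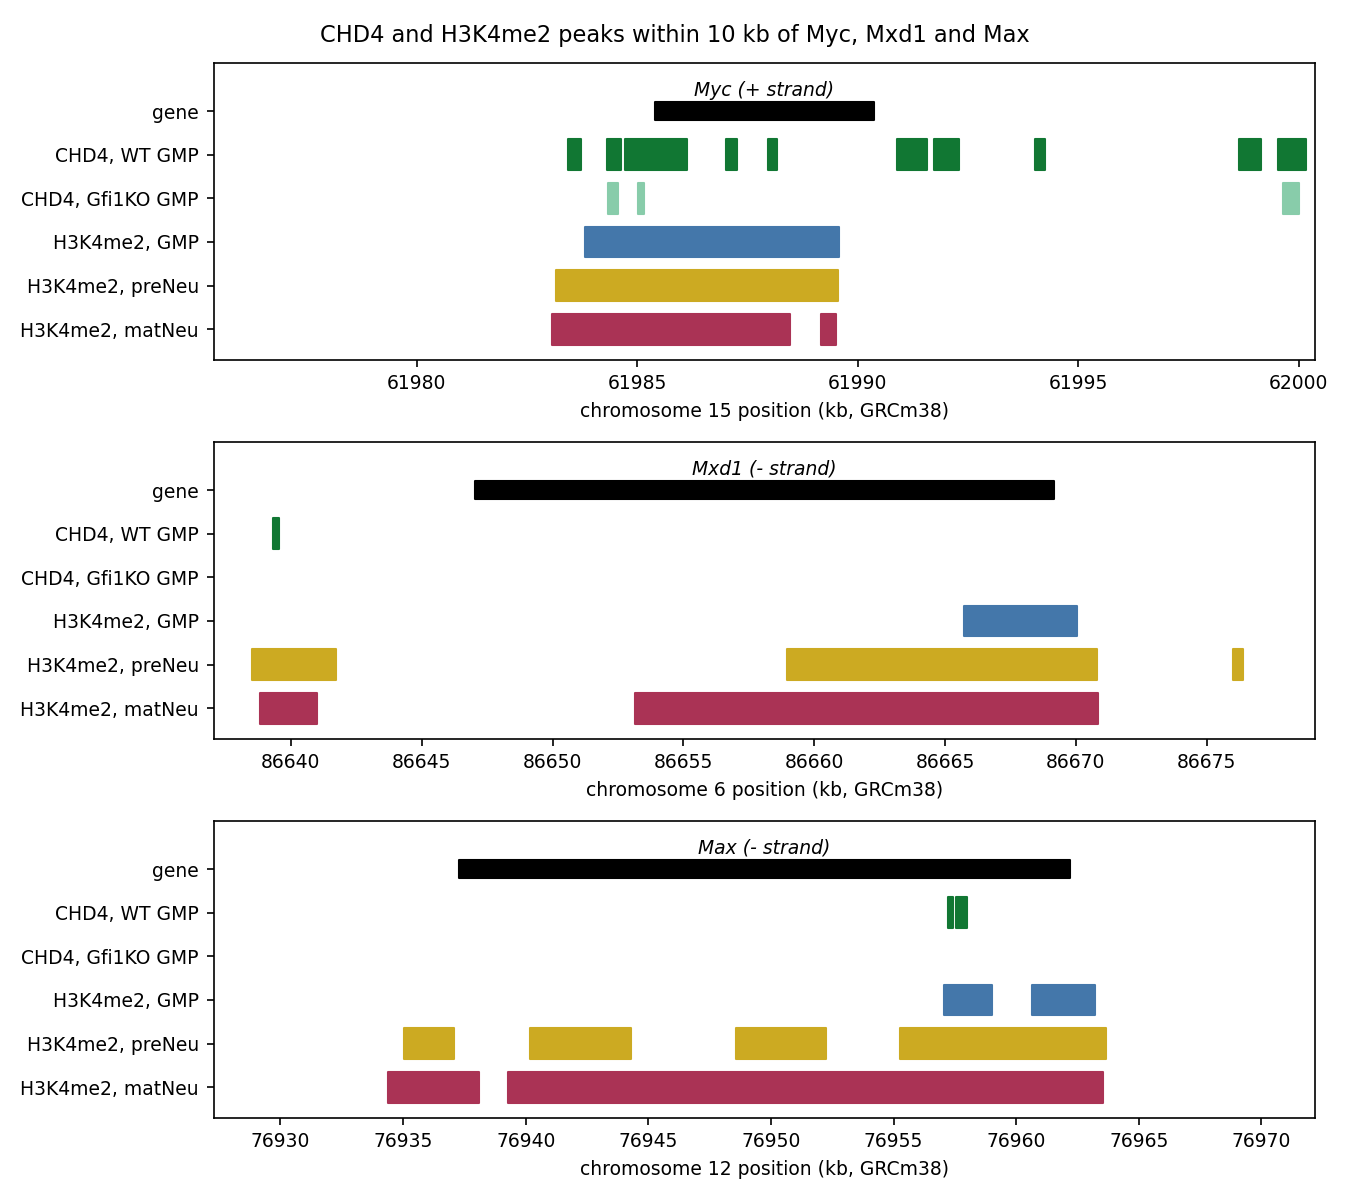
Peaks of CHD4 (WT and Gfi1KO GMPs) and H3K4me2 (3 cell types) within 10 kb of Myc, Mxd1 and Max, drawn to scale by position on GRCm38 (kb). CHD4 peaks gather at Myc, where 3 of 10 recur in Gfi1KO GMPs, and H3K4me2 at Max and Mxd1 is longest in matNeu.

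Promoters from RefSeq (GRCm38.p6) were searched for the E-box CACGTG, the site of MAX dimers, which reads the same on both strands, from 250 bases before to 50 after the start. Of the 10 genes, 9 had an entry and Myc had none, and 3 of the 9 held the motif, against 8.09% of 27025 genes with a promoter entry. These 3 are printed up to 30 bases past the start because they are the network promoters that carry the family's own motif, and each lay under H3K4me2 in all 3 cell types. The capitals mark the E-box, whose first base is 3 bases before the start in Max, 219 in Mxd4 and 123 in Mnt. They are Max at chr12:76962219-76962498 (minus strand), Mxd4 at chr5:34187681-34187960 (minus strand) and Mnt at chr11:74830674-74830953 (plus strand), and a match is a description, not a site.
Max: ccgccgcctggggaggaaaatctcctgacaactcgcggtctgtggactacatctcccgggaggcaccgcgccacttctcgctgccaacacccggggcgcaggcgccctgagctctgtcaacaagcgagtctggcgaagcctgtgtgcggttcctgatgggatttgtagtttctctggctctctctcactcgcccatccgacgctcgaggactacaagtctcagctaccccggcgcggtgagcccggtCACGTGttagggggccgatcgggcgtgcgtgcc
Mxd4: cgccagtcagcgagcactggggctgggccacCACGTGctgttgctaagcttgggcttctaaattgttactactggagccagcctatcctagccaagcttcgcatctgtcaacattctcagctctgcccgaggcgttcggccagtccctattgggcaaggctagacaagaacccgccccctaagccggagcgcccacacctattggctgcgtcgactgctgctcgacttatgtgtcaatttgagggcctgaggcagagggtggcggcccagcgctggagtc
Mnt: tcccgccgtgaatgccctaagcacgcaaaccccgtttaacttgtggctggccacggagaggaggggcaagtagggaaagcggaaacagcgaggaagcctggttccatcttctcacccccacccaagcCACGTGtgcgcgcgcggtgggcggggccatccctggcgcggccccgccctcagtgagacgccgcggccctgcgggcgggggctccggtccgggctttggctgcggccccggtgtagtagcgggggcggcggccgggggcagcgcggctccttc

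Windows of 200 bases around the CHD4 summits of WT GMPs were searched on both strands of GRCm38 for AAATCA, the core of the sequence GFI1 is known to bind, and for the E-box CACGTG. The first motif was in 12.0% of 35728 windows and in 1 of the 22 near the network genes, and the second in 1.84% and also in 1 of 22. Those windows are printed, since the first belongs to a peak found again without GFI1 and the second lies beside Mxd1, which rose most of the 10 genes. They are read on the plus strand at chr4:122991253-122991452, upstream of Mycl with AAATCA in capitals, and at chr6:86639310-86639509, downstream of Mxd1 with CACGTG in capitals. The Mxd1 window lay under H3K4me2 in preNeu and matNeu and not in GMP.
Mycl: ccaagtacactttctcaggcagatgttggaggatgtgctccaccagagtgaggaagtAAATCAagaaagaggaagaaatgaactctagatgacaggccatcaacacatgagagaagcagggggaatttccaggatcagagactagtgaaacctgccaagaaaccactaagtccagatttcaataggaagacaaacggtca
Mxd1: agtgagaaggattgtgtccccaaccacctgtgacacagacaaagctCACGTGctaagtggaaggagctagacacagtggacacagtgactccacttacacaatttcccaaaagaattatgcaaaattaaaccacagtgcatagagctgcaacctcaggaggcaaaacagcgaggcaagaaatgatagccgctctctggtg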

How the data were processed

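The series holds RNA-seq, ChIP-seq and ATAC-seq files of 18 samples. The expression table holds TPM values that the authors deposited for 9 libraries. The labels name kallisto 0.44.0 for the series while the methods name other tools for RNA, so how the TPM were made is unclear, and depth is unknown. Peak lists, deposited by the authors from BWA 0.7.17 and MACS2 2.1.0 on mm10, give fold enrichment over background and -log10 q. A stranded kit was used, and whether strand was used in counting is not stated.

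The log2 of TPM plus 1 was fitted by cell type over all 9 libraries, using limma 3.58.1 (R 4.3.3) and a variance trend. Genes entered when 3 or more libraries reached 1 TPM. Benjamini-Hochberg adjusted p-values over all 13061 genes were called at 0.05. Fits were tested on simulated data. The 10 genes and the lists of partners, targets and markers were chosen with earlier results of these data known. The named list genes are up to 4 per list with the largest called change from GMP to matNeu. The 5 genes most correlated with Myc and with Mxd1 and some genes within 10 kb of the 10 are named as well. Marker genes are examples picked from the marker lists after their values were seen. Any other gene is said to be chosen after its values were seen.

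Peaks were assigned to each gene with 10 kb on each side (GENCODE M21, GRCm38), peaks overlapping by at least 1 base counted as found again, and overlaps and motifs were computed in Python 3.11.15 with pandas 2.3.3, pysam 0.24.0 and samtools 1.23.1. Alternatives were a pseudocount of 0.1, no filter or 5 TPM, median-of-ratios scaling, leaving out the 100 highest genes, fitting only the compared cell types, a replicate block, no variance trend, leaving out each library, stricter peaks, windows of 5 and 20 kb, and other overlap rules. The H3K4me3 and GFI1 lists were left out because their coordinates run past the ends of GRCm38 chromosomes, and the ATAC lists because the preNeu and matNeu ones are identical.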

Additional observations from a re-analysis of the deposited data

How the results depend on the processing

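The counts of network genes that rose or fell stayed within 1.5 times their value under all 102 alternatives, and so did the 102 counts over all lists. Of 408 alternative changes of the 8 tested network genes, 394 kept their direction and their side of the threshold, 6 no longer passed, 5 came to pass and 3 turned sign. Over the fits that leave out 1 library, Max from GMP to preNeu ranged from -0.03 to 0.23, and Mga from preNeu to matNeu from -0.02 to 0.25. Those that turned were Max from GMP to preNeu without GMP replicate 2 (-0.03), Mga from preNeu to matNeu without the 100 highest genes (-0.08) and Mga from preNeu to matNeu without matNeu replicate 3 (-0.02). None of these changes passed the test in the first place, and the cause was not tested. The number of H3K4me2 peaks of GMPs near the 10 genes was 10 instead of 21 with a -log10 q of at least 5, since fewer peaks enter. The other 16 peak counts stayed within 1.5 times their value. The median matNeu ratio of Mxd1 to Myc moved from 8984 to 2068 with 1 TPM added to both genes, and it depends on which libraries are kept. Without the filter Mycn also entered and was lower in both other cell types than in GMP. For single lists, chosen after seeing the data, 36 of 816 counts and 46 of 408 medians moved, 25 and 43 of these under settings other than leaving out a library. The same holds for the share covered by H3K4me2, where 35 of 90 values moved. The replicate numbers do not pair the libraries, and fitting them as a block changed no count of network genes. Depth is unknown, so what it limits for Mycn, Mycl and other genes under 1 TPM cannot be told.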

Other observations

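Several network genes share their place with other genes, and strand use in counting is not stated. Prelid1, a mitochondrial lipid transfer gene on the opposite strand, overlaps the end of Mxd3 and read 342, 272 and 325 TPM in GMP, 434, 439 and 282 TPM in preNeu and 249.5, 249.7 and 283 TPM in matNeu, where Mxd3 was under 1 TPM. Rab24, a small GTPase gene within 10 kb of Mxd3, read 17.1, 33.1 and 60.9 TPM in GMP, 232, 296 and 184 TPM in preNeu and 60.8, 185 and 242 TPM in matNeu. Mettl16, an RNA methyltransferase gene near Mnt, read 53.8, 58.1 and 67.0 TPM in GMP, 13.0, 16.2 and 21.2 TPM in preNeu and 3.23, 3.99 and 3.42 TPM in matNeu, whereas Mnt was highest in matNeu. Haus3, a spindle gene near Mxd4, read 101, 92.7 and 81.6 TPM in GMP, 51.1, 48.4 and 66.0 TPM in preNeu and 3.90, 5.18 and 5.34 TPM in matNeu.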
